A study of Drosophila melanogaster with 9 samples.

Results

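The regions described here are 505 bins of 10 kb, of the 11120 bins used in 2 lists of interacting bin pairs from Hi-C, an assay that ligates cut DNA ends held near each other in fixed nuclei and reads which ends were joined. They were chosen by their partner numbers: each had at least 5 more partners in the companion list than in the heat-shock list, and under 50 in the heat-shock list. They are called members below. A partner of a bin is a different bin paired with it in a list. The heat-shock list covers 2 Hi-C libraries together, made with HindIII from Kc167 cells, a line derived from Drosophila melanogaster embryos. Culture was at 25 °C, heat shock was 20 min at 37 °C after mixing with warm medium, and formaldehyde was added afterwards. No label used here ties the companion list to a sample, a treatment or a number of libraries. The bins cannot be called bins that lost partners after heat shock from the labels alone, so "lost" below means only that a pair was in the companion list and not in the heat-shock list. "Kept" means that it was in both, and "gained" that it was in the heat-shock list alone.

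The 2 lists held 33978 companion pairs and 59303 heat-shock pairs, all within the arms 2L, 2R, 3L, 3R and X, and every listed score was -2 or below. They carry no read counts, so depth is unknown and a missing pair is only known not to have passed that limit. Because each kind has 1 list, replicate spread is unknown and the lists were not tested against each other. Intervals are exact 95% binomial intervals for shares and order-statistic 95% intervals for medians. They reflect counting error alone, and they are too narrow where neighbouring pairs or bins vary together. The sources used here name no genome build, so no gene was assigned to a bin, and positions (counted from 1) follow the authors' files.

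Chromosome arms fold into domains, within which contacts are frequent, and contact frequency falls with distance along the arm. DNA next to the centromeres is packed as heterochromatin, rich in repeated sequence and poor in genes, and in fly nuclei the centromeric regions often lie together in a chromocentre. Heat shock in fly cells switches on the heat shock protein genes and lowers the transcription of many other genes.

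The members were rich in companion partners and close to the typical bin in heat-shock partners. The median member had 15 companion partners (95% interval 14 to 16) and 7 heat-shock partners (6 to 8), while the median over all 11120 bins was 3 companion and 6 heat-shock partners. Their partners summed to 9325 companion and 4976 heat-shock partners, a ratio of 0.53, although the heat-shock list as a whole was 1.75 times as long. These values follow from the rule and carry no test. The members made up 4.54% of the bins used, while 30.5% of the bins used differed by at least 5 partners in the other direction. This balance depended on the length of the lists: with the heat-shock list shortened to its strongest pairs at equal length, 1686 bins had at least 5 fewer partners and 860 at least 5 more, and 1681 bins met the rule. The loss was 5 partners in 131 members, 10 or more in 145, 20 or more in 20 and 30 or more in 5. Just inside the limit, the 131 bins with a loss of 5 had a median of 9 companion and 4 heat-shock partners. Just outside it, the 199 bins with a loss of 4 had a median of 8 and 4. The ceiling kept out 7 bins, and the nearest of these, 2L 5990001-6000000 and 2L 6950001-6960000, had 61 and 59 companion partners and 50 heat-shock partners each. The member with most heat-shock partners had 46.

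Of the members, 29 (5.74%, 3.88 to 8.14%) were absent from the heat-shock list, and 141 (27.9%, 24.0 to 32.0%) kept none of their companion partners. Most were not emptied: by exact bin match 458 (90.7%, 87.8 to 93.1%) had at least 1 gained partner, with a median of 5 gained partners per member. These shares were not counted for other bins, so they are not read as particular to members.

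**Figure D1:**
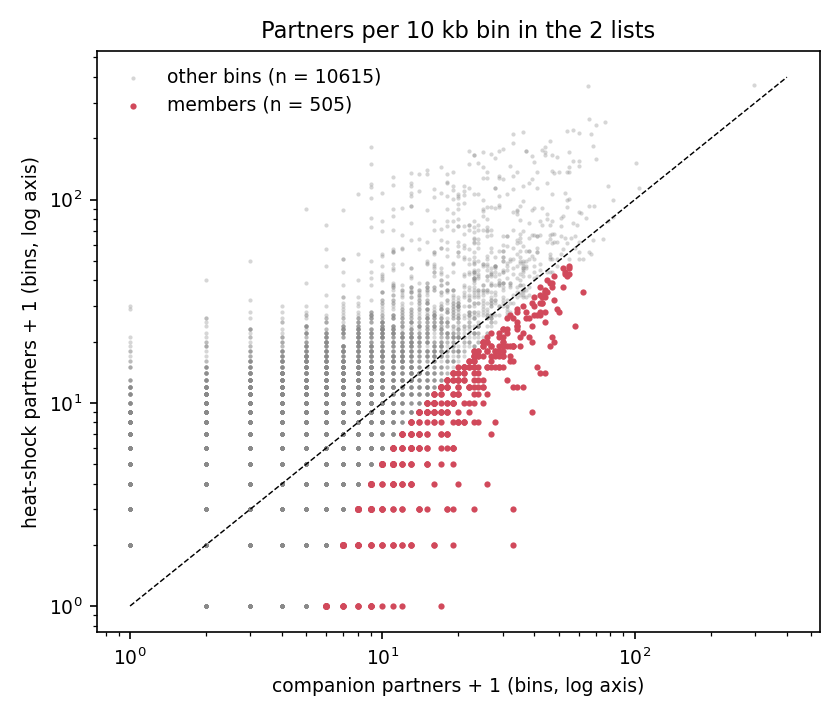
Companion partners (x) and heat-shock partners (y) of each of the 11120 bins, both plus 1 on log axes, with the 505 members in red, the other bins in grey and a dashed line at equal numbers. The members form the band under the line, down to the 29 bins with no heat-shock partner.

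Only a bin with 5 or more companion partners and under 50 heat-shock partners could be a member. There were 4182 such bins, of which 12.1% were members, and the other 3677, called other eligible bins, serve as the comparison. They had fewer companion partners than the members, with a median of 8 (7 to 8), so some comparisons are repeated within classes of companion partner number.

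Members were more frequent at the centromere ends than elsewhere over all arms together, and by arm beyond counting error on 3L and 2R. Within 1 Mb of the last used bin at the centromere end lay 103 members (20.4%, 17.0 to 24.2%) and 195 other eligible bins (5.30%, 4.60 to 6.08%). Of the eligible bins there, 34.6% (29.2 to 40.3%) were members, against 10.7% (9.74 to 11.8%) between the end windows. In the 1 Mb at the telomere ends, 1 of 141 eligible bins was a member (0.71%, 0.018 to 3.89%). These intervals do not overlap, so the 3 zones differed beyond counting error. The difference at the centromere end also held within classes of companion partner number. Of eligible bins with 20 to 61 companion partners, 60.6% (50.5 to 70.0%) were members at the centromere end and 31.8% (27.0 to 37.0%) elsewhere. With 10 to 19 companion partners the shares were 28.7% (20.4 to 38.2%) and 16.7% (14.5 to 19.1%). With 5 to 9 they were 10.5% (4.90 to 18.9%) and 4.45% (3.67 to 5.34%), with overlapping intervals.

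The arms differed. At the centromere end of 3L, 51 of 79 eligible bins were members (64.6%, 53.0 to 75.0%), and at that of 2R 26 of 68 (38.2%, 26.7 to 50.8%). Between the end windows the shares were 11.0% (8.95 to 13.3%) on 3L and 11.7% (9.40 to 14.4%) on 2R. On 2L the share was 21.8% (13.2 to 32.6%) at the centromere end and 12.3% (9.96 to 14.9%) between the end windows, and on X 21.4% (10.3 to 36.8%) and 13.7% (11.1 to 16.7%), with overlapping intervals on both arms. On 3R none of 31 eligible bins at the centromere end was a member, which allows up to 11.2%. Arm 3R had the fewest members over its whole length as well, 62 of 999 eligible bins (6.21%, 4.79 to 7.89%), against 143 of 935 (15.3%, 13.1 to 17.8%) on 3L, 104 of 749 (13.9%, 11.5 to 16.6%) on 2R, 92 of 660 (13.9%, 11.4 to 16.8%) on X and 104 of 839 (12.4%, 10.2 to 14.8%) on 2L. The 3R interval lay below those of the other arms, whose intervals overlapped. Without 3L, 14.4% (10.9 to 18.4%) of the members and 5.79% (4.96 to 6.70%) of the other eligible bins lay at the centromere ends. With lists of equal length, 11.1% of the bins that met the rule lay there.

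Some windows in the arm interiors were also rich in members. On X, 15 of 39 eligible bins (38.5%, 23.4 to 55.4%) were members in the window from 11430001 to 12430000, and 9 of 32 (28.1%, 13.7 to 46.7%) in that from 9430001 to 10430000. On 2L the window from 7990001 to 8990000 held 21 members among 68 eligible bins (30.9%, 20.2 to 43.3%). On 2R the window from 16010001 to 17010000 held 11 among 41 (26.8%, 14.2 to 42.9%). These windows were picked for their values, and their intervals are wide.

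**Figure D2:**
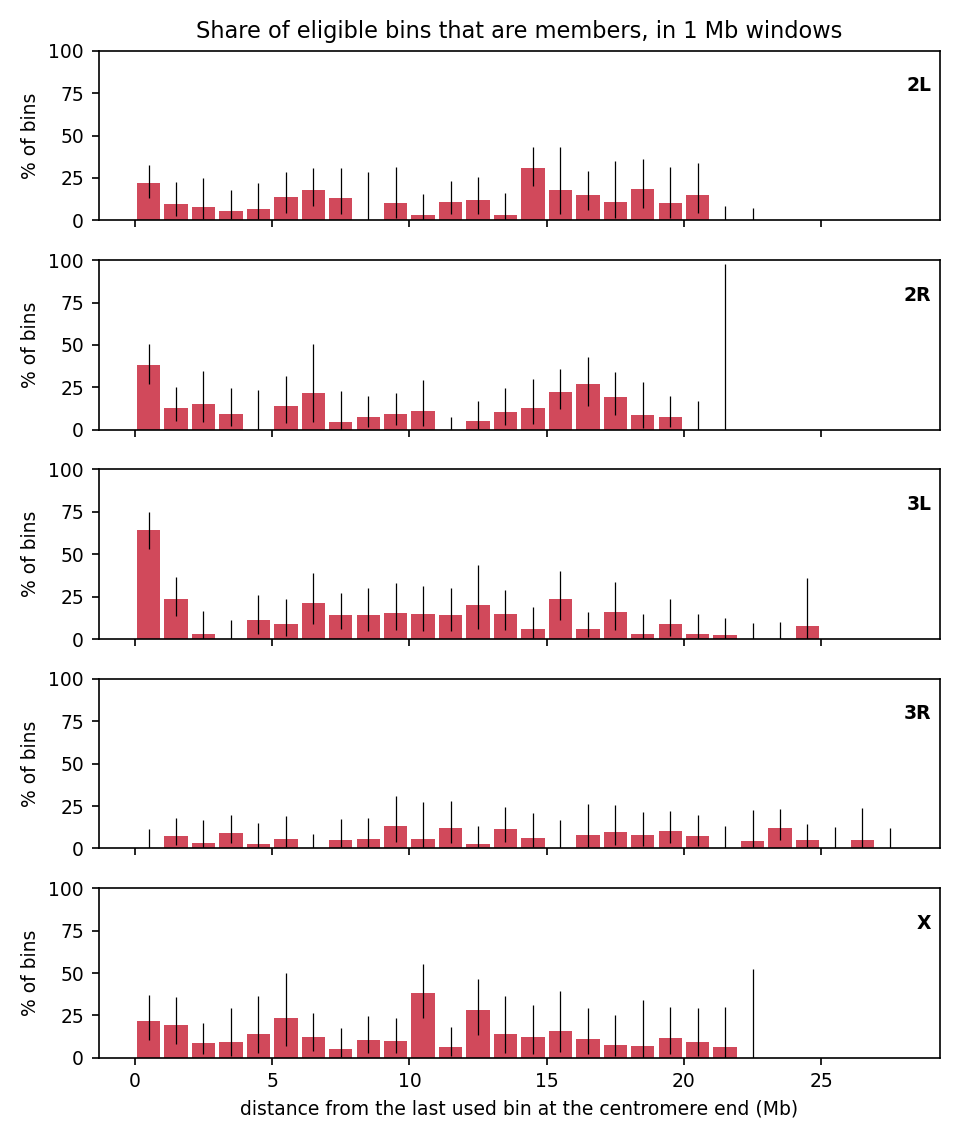
Share of eligible bins that were members (y, percent) in windows of 1 Mb by distance from the last used bin at the centromere end (x, Mb), one panel per arm; bars are shares and black lines exact 95% intervals. The tallest bar with a narrow interval is the first window of 3L at 64.6%, while the first window of 3R is at 0.

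An adjacent member was more frequent at members than at other eligible bins. How often other eligible bins lay next to each other was not counted. Members also had an adjacent eligible bin more often, 78.6% (74.8 to 82.1%) against 64.2% (62.6 to 65.7%), and this was not matched. Of the members, 168 (33.3%, 29.2 to 37.6%) had an adjacent member, against 360 of the other eligible bins (9.79%, 8.85 to 10.8%). The difference held at the centromere ends, with 68.0% (58.0 to 76.8%) against 31.8% (25.3 to 38.8%), and elsewhere, with 24.4% (20.3 to 28.9%) against 8.56% (7.65 to 9.54%). It held among bins with 20 to 61 companion partners, with 43.4% (36.0 to 51.1%) against 17.1% (12.9 to 22.0%). The members fell into 399 runs: 337 single bins, 41 runs of 2, 11 of 3 and 10 of 4 or more, of which 5 began at a centromere end.

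The longest run covered 9 bins, 3L 24300001-24390000. Its bins had 23, 29, 43, 22, 28, 27, 54, 17 and 6 companion partners and 12, 18, 13, 2, 14, 14, 45, 2 and 1 heat-shock partners, in order along the arm. Every bin of the run was thus lower in the heat-shock list, as the rule requires, but by very different parts. The next run, 3L 23390001-23460000, had 28, 61, 38, 33, 52, 31 and 17 companion partners and 17, 34, 23, 11, 43, 18 and 9 heat-shock partners. The bins on either side of it, which were not members, differed less: the first had 22 companion and 27 heat-shock partners and the other 45 and 43.

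Next came 3L 23590001-23650000, whose 6 bins summed to 158 companion and 79 heat-shock partners. The run 2R 870001-930000, also of 6 bins, had 21, 23, 27, 38, 17 and 33 companion partners and 14, 16, 17, 19, 11 and 22 heat-shock partners. All of these runs except the one on 2R lay near the centromere end of 3L, 0.15, 1.08 and 0.89 Mb from its last used bin.

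The run 2L 8230001-8280000 lay in the arm interior, 14.71 Mb from the centromere-end bin. Its 5 bins had 40, 20, 18, 9 and 10 companion partners and 26, 13, 4, 3 and 1 heat-shock partners. It stood in a stretch with more members: 2L 8290001-8300000 had 38 companion and 8 heat-shock partners, and 2L 8310001-8320000 had 48 and 28. In the same stretch 2L 8210001-8220000 had 74 and 63 and was kept out by the ceiling, and 2L 8280001-8290000 had 13 in both lists.

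**Figure D3:**
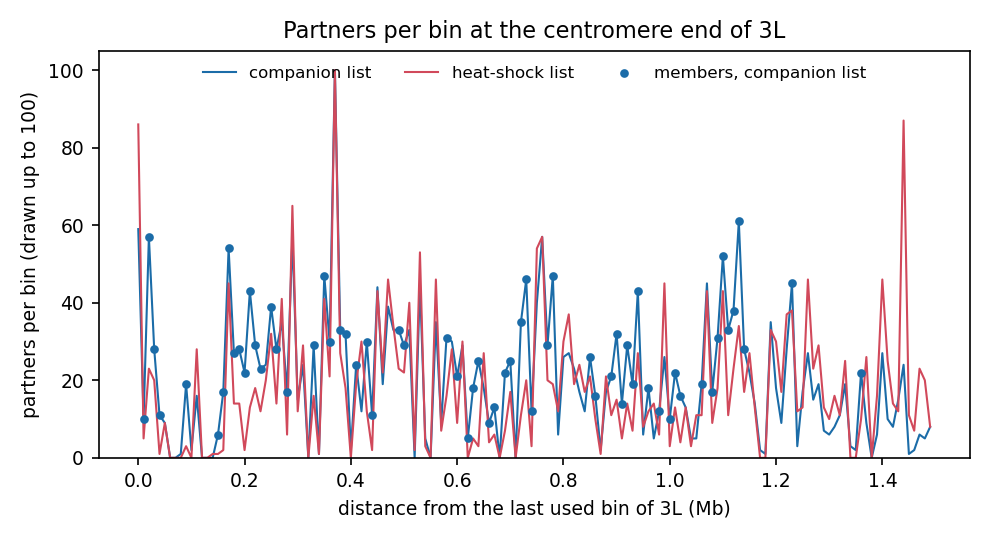
Partners per bin (y) in the companion list (blue) and the heat-shock list (red) by distance from the last used bin of 3L (x, Mb), with values over 100 drawn at 100 and members marked as blue points. Members such as the bin at 0.21 Mb, with 43 companion and 13 heat-shock partners, alternate with bins that had more heat-shock partners, such as the last bin, with 59 and 86.

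Away from runs, a member was often a lone bin. Among the 337 single members, both neighbours had under 50% of the member's companion partners in 156 (46.3%, 40.9 to 51.8%). The bins beside single members had a median of 5 companion partners (4 to 5) and 6 heat-shock partners (6 to 7), while the single members had 14 (13 to 15) and 7 (5 to 8). Of all other eligible bins, 28.1% (26.6 to 29.6%) had both neighbours under 50% of their companion partners. Single members have no member beside them by definition, and their share was not counted by class. Over all members with 20 to 61 companion partners, those in runs included, the share was 44.0% (36.5 to 51.7%). It was 43.4% (37.5 to 49.4%) in other eligible bins of that class, a difference within counting error.

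Bins with fewer heat-shock partners were also more frequent beside members than beside other eligible bins. The bins beside members had more companion partners, with a median of 6 against 4, and this was not matched. Of the bins directly beside a member that were not members themselves, 29.3% (26.0 to 32.9%) had fewer heat-shock than companion partners, against 18.3% (17.3 to 19.4%) of such bins beside other eligible bins. At 200 kb, the farthest distance read, the shares were 20.5% (17.7 to 23.5%) and 16.1% (15.1 to 17.1%). At some nearer distances the intervals overlapped. At 190 kb the shares were 18.2% (15.5 to 21.1%) and 17.0% (16.0 to 18.0%), and at 120 kb 19.4% (16.6 to 22.3%) and 16.7% (15.7 to 17.7%). The difference was thus not steady out to 200 kb. The median bin beside a member had 1 partner more in the heat-shock list (1 to 2), against 2 more (2 to 3) beside other eligible bins. The typical neighbour of a member was thus higher in the heat-shock list, by a smaller margin.

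The largest losses fell on bins of different kinds. At the end of 3L, 24510001-24520000 had 57 companion and 23 heat-shock partners: 39 were lost, 18 kept and 5 gained, and 27 of the 39 lost partners were members. Its lost partners were near, at a median of 0.74 Mb. The bin 3L 24320001-24330000 had 43 and 13, with 25 of 35 lost partners being members, and 3L 23750001-23760000 had 47 and 19, with 23 of 39. The bins 3L 23400001-23410000 (61 and 34 partners) and 3L 23800001-23810000 (46 and 20) lost 22 members each as partners. In each of these 5 bins over 50% of the lost partners were members. Of their kept partners, in the same order, 9 of 18, 3 of 8, 2 of 8, 12 of 22 and 8 of 11 were members. Members were also common there: of the eligible bins within 1 Mb of that end 64.6% were members. The shares among lost partners are thus not read as particular to the loss.

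In the other bins with the largest losses under 50% of the lost partners were members. The bin X 21020001-21030000 had 32 companion partners and 1 heat-shock partner. Of its 31 lost partners, at a median of 1.11 Mb, 1 was a member. The bin 3R 19150001-19160000 had 32 companion partners, none of which was kept, and 2 heat-shock partners. Its lost partners lay at a median of 9.22 Mb, while its neighbours had 29 and 17 companion partners and 59 and 121 heat-shock partners. A low bin thus sat between 2 bins that were high in the heat-shock list. X 22350001-22360000 had 41 and 13 partners, and 9 of its 34 lost partners were members. Its lost partners lay at a median of 5.12 Mb, against 0.38 Mb for those it kept. In 3L 9300001-9310000, with 45 and 18 partners, these medians were 3.51 and 0.22 Mb.

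On the remaining arms the largest losses were in 2R 1460001-1470000, with 40 companion and 14 heat-shock partners, and 2R 12070001-12080000, with 49 and 27. On 3R, 14030001-14040000 followed with 37 and 20 partners; it lost 33 companion partners and gained 16 others. On 2L the 2 largest were the bins at 8290001 and 8310001 given above. Of the members absent from the heat-shock list, 3L 400001-410000 had most companion partners, 16, at a median distance of 16.9 Mb. It was followed by 3L 19460001-19470000 with 11, X 3070001-3080000 with 10, X 11600001-11610000 with 9 and 2R 340001-350000 with 8. The bin beside X 11600001-11610000 had 8 companion and 114 heat-shock partners, and a bin beside 2R 340001-350000 had 34 and 78.

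The companion partners of members were lost at every distance, and most often far away. Counted from each member, 7504 of 9325 companion partners were lost (80.5%, 79.7 to 81.3%), 1821 were kept and 3155 were gained. The lost part of other eligible bins was 69.0% (68.5 to 69.4%). That difference follows from the rule. By distance, the share lost by members was 80.8% (76.3 to 84.7%) up to 200 kb, 72.2% (70.9 to 73.5%) from there to 1 Mb, 86.8% (85.5 to 88.0%) between 1 and 5 Mb, and 95.1% (93.8 to 96.2%) beyond. For other eligible bins the shares were 51.2% (49.3 to 53.0%), 56.0% (55.2 to 56.9%), 76.0% (75.3 to 76.8%) and 90.8% (90.1 to 91.6%), so the gap between the sets was widest for the nearest partners.

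Lost partners of members lay at a median of 1.08 Mb (1.02 to 1.13 Mb), kept ones at 0.65 Mb (0.62 to 0.67 Mb) and gained ones at 1.94 Mb (1.83 to 2.11 Mb). For other eligible bins the medians were 1.73 Mb (1.69 to 1.76 Mb), 0.66 Mb (0.64 to 0.68 Mb) and 2.10 Mb (2.07 to 2.13 Mb). With all places together, lost partners of members were thus nearer than those of other eligible bins. Among bins with 20 to 61 companion partners, a class that does not account for place, the medians were 0.92 Mb (0.89 to 0.98 Mb) for members and 1.52 Mb (1.43 to 1.58 Mb) for the others. Split by place, the intervals for lost partners of the 2 sets overlapped. At the centromere ends members lost and kept partners at the same median distance, 0.58 Mb (0.57 to 0.60 and 0.55 to 0.60 Mb). Other eligible bins there lost partners at 0.60 Mb (0.57 to 0.61 Mb) and kept them at 0.52 Mb (0.50 to 0.54 Mb). Elsewhere lost partners of members lay at 1.75 Mb (1.67 to 1.82 Mb) and kept ones at 0.72 Mb (0.68 to 0.77 Mb). For other eligible bins elsewhere these medians were 1.85 Mb (1.81 to 1.89 Mb) and 0.71 Mb (0.69 to 0.72 Mb).

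By arm, the median distance of partners lost by members was 0.70 Mb (0.66 to 0.74 Mb) on 2R, 0.81 Mb (0.76 to 0.85 Mb) on 3L, 1.18 Mb (1.08 to 1.27 Mb) on X, 1.84 Mb (1.78 to 1.87 Mb) on 2L and 2.06 Mb (1.76 to 2.57 Mb) on 3R. Partners kept by members lay at 0.61 to 0.64 Mb on all arms but 2L, where the median was 0.92 Mb (0.68 to 1.03 Mb).

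**Figure D4:**
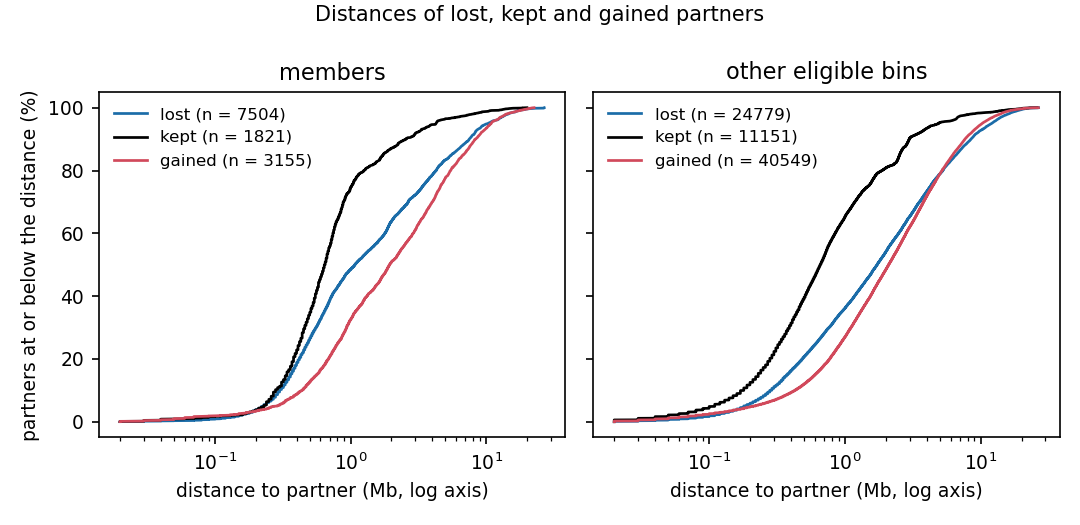
Cumulative share of lost, kept and gained partners (y, percent) by distance (x, Mb, log axis) for members (left) and other eligible bins (right). In both panels the kept curve rises first, with medians of 0.65 and 0.66 Mb. With all places together, the lost curve of members lies left of that of other eligible bins, with medians of 1.08 and 1.73 Mb.

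Many lost pairs had a heat-shock pair close by, although how often one lies that close to any 2 bins was not counted. Of the partners lost by members, 2590 (34.5%, 33.4 to 35.6%) had a heat-shock pair within 1 bin of both ends, against 27.8% (27.2 to 28.4%) for other eligible bins. For members in runs of 2 or more this was 47.7% (45.8 to 49.6%), and for single members 27.0% (25.7 to 28.2%). If such pairs count as kept, members lost 52.7% (51.7 to 53.7%) of their companion partners and other eligible bins 49.8% (49.3 to 50.3%). Within 2 bins the order turned, with 36.9% (35.9 to 37.9%) for members and 38.6% (38.1 to 39.1%) for other eligible bins, whose intervals do not overlap.

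Kept partners of members had stronger companion scores than lost ones, with medians of -3.10 (-3.15 to -3.04) and -2.56 (-2.58 to -2.54). The deposited score was used as the authors gave it and only within a list. The lost share of members was 88.3% (87.2 to 89.3%) for scores above -2.5, at the weak end of the list, 75.1% (73.7 to 76.3%) from there to -5 and 69.8% (66.3 to 73.2%) from -5 to -10. For other eligible bins these shares were 79.4% (78.8 to 80.0%), 61.7% (61.0 to 62.5%) and 42.9% (40.7 to 45.1%). With all distances together, the strongest class, which held 281 partners of members, broke that order at members and not at other eligible bins. Among partners with a companion score of -10 or below, members lost 230 of 281 (81.9%, 76.8 to 86.2%) and other eligible bins 230 of 596 (38.6%, 34.7 to 42.6%). The difference between the sets was also present within distance bands. Of strong partners over 200 kb to 1 Mb away, members lost 35 of 46 (76.1%, 61.2 to 87.4%) and other eligible bins 18 of 106 (17.0%, 10.4 to 25.5%). Over 1 to 5 Mb the shares were 81.3% (72.0 to 88.5%) and 31.8% (26.1 to 38.1%), and over 5 Mb 84.1% (76.9 to 89.7%) and 54.7% (48.2 to 61.1%). The broken order of members was not present in every band. From the -5 to -10 class to the strongest, their lost share rose beyond counting error only over 200 kb to 1 Mb, from 51.6% (45.9 to 57.2%). Over 5 Mb it fell, from 98.0% (94.2 to 99.6%). Of the 230 strong partners lost by members, 47 (20.4%, 15.4 to 26.2%) had a heat-shock pair within 1 bin, and 77 were lost by bins at the centromere ends. At least 1 strong companion partner was held by 132 members (26.1%, 22.4 to 30.2%) and by 404 other eligible bins (11.0%, 9.99 to 12.0%). Which pairs a member lost is tied to the rule, so these lost shares are a description.

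The strongest lost pair that joined 2 members was 3L 23930001-23940000 with 3L 24510001-24520000, 0.58 Mb apart, with a companion score of -73.8. A heat-shock pair lay within 1 bin of it. The second joined 3L 19850001-19860000 to 3L 23170001-23180000, 3.32 Mb apart, with -50.2, and had no heat-shock pair within 1 bin. Next, X 9690001-9700000 with X 14050001-14060000 also had -50.2 and a heat-shock pair within 1 bin, and both of its bins went from 8 companion partners to none. The remaining 2 joined 3L 23300001-23310000 to 3L 24370001-24380000 (-49.8) and to 3L 24510001-24520000 (-44.1).

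The strongest kept pairs of members were all long, and each joined a member to a bin that was not one. The pair 2R 9020001-9030000 with 2R 17930001-17940000, 8.91 Mb apart, had a companion score of -192 and a heat-shock score of -20.8. The pair 3R 3870001-3880000 with 3R 17550001-17560000, 13.68 Mb apart, scored -136 and -49.0. It was followed by X 11430001-11440000 with X 18900001-18910000, with -106 and -26.6; this was the only heat-shock partner of the X 11430001 bin, which had 18 in the companion list. The remaining 2, 3R 11240001-11250000 with 3R 19580001-19590000 and 3L 11260001-11270000 with 3L 18310001-18320000, scored -105 and -97.0 (companion) and -12.7 and -31.9 (heat shock).

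Members were often each other's partners. In the companion list 26.7% (25.8 to 27.6%) of the partners of members were members, against 12.8% (12.4 to 13.1%) of the partners of other eligible bins. Of the partners that members lost, 2104 (28.0%, 27.0 to 29.1%) were members, of those kept 384 (21.1%, 19.2 to 23.0%), and of those gained 230 (7.29%, 6.41 to 8.25%). A lost pair lowers the partner number at both of its ends, so lost pairs are tied to members by the rule; members held 16.3% (16.0 to 16.6%) of all ends of companion-only pairs. Other eligible bins share that tie, and of their lost partners 15.0% (14.5 to 15.4%) were members.

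As different pairs, 1244 companion pairs joined 2 members, of which 1052 were lost and 192 kept, while 115 were gained. The heat-shock list thus held 307 pairs between members, 0.25 times the companion number. Pairs that touched a member in at least 1 end numbered 8081 among companion and 4669 among heat-shock pairs, a ratio of 0.58. Pairs that touched no member went from 25897 to 54634, a ratio of 2.11. The choice of members pushes pairs that touch a member below pairs that touch none. It does not by itself fix that pairs between 2 members had the lowest ratio, although each such lost pair counts at 2 members. Of the 505 members, 426 (84.4%, 80.9 to 87.4%) lost at least 1 pair to another member, yet at 92 (18.2%, 15.0 to 21.9%) at least 50% of the lost partners were members. Most losses of a typical member were therefore to bins outside the set.

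Pairs lost between 2 members were shorter, with a median of 0.70 Mb (0.66 to 0.73 Mb), than those lost between a member and another bin, at 1.41 Mb (1.31 to 1.49 Mb). The share of lost partners that were members was highest over 200 kb to 1 Mb, at 38.4% (36.8 to 40.1%), and fell to 15.7% (13.7 to 17.8%) over 5 Mb. It was 49.4% (47.1 to 51.7%) for members at the centromere ends and 21.2% (20.1 to 22.3%) elsewhere. Other eligible bins showed the same order by place, with 37.7% (35.1 to 40.3%) at the centromere ends and 13.6% (13.1 to 14.0%) elsewhere. For members in runs of 2 or more the share was 42.5% (40.6 to 44.4%), and for single members 19.8% (18.7 to 20.9%).

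**Figure D5:**
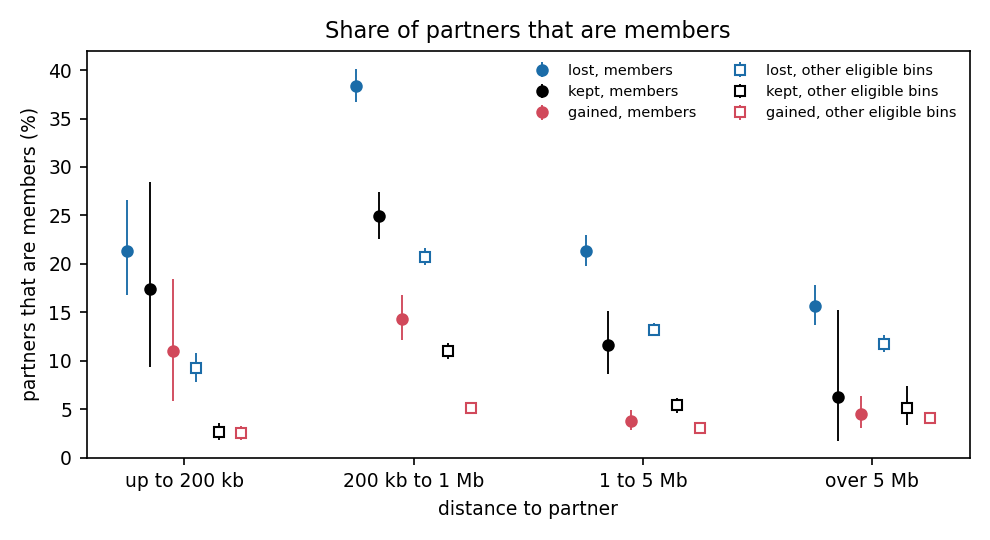
Share of lost (blue), kept (black) and gained (red) partners that were members (y, percent) by distance band (x), for members (filled circles) and other eligible bins (open squares), with exact 95% intervals. Lost partners of members have the highest share in each band, up to 38.4% over 200 kb to 1 Mb, where other eligible bins have 20.8%.

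Arm 3L held 524 of the 1052 lost pairs between members (49.8%, 46.8 to 52.9%) and 3R held 34 (3.23%, 2.25 to 4.49%). On 3L 28.1% (26.0 to 30.2%) of the lost pairs of members joined 2 members, against 15.2% (13.3 to 17.3%) on 2R, 13.6% (11.8 to 15.5%) on 2L, 10.6% (8.78 to 12.7%) on X and 3.87% (2.69 to 5.36%) on 3R. Linking members by their lost pairs joined 122 of the 143 members of 3L into 1 group with 520 lost pairs, and 89 of the 104 of 2L into 1 group with 193. On 3R the largest such group had 17 of 62 members, and 79 members of all arms were in no group.

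Neighbouring members lost the same partners more often than distant ones did. Directly adjacent members, 106 couples, had 30.9% (29.4 to 32.4%) of their lost partners in common, and members 10 bins apart 18.8% (17.2 to 20.6%). Members of one arm over 20 bins apart had 2.22% (2.19 to 2.25%) in common. The same was not counted for other eligible bins, so whether this decline is particular to members was not tested.

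Blocks of 1 Mb, counted from the start of the arm, showed where lost pairs between members were dense. Between 23 to 24 Mb and 24 to 25 Mb of 3L, 306 pairs between members were lost, 78 kept and 39 gained. The whole block went from 950 companion to 709 heat-shock pairs; those touching a member went from 789 to 446, and those touching none from 161 to 263. Within 23 to 24 Mb of 3L, 70 pairs between members were lost, 13 kept and 8 gained.

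In some other blocks the total was close in the 2 lists. Members were chosen for fewer heat-shock partners over the whole arm. The split into pairs that touch a member and pairs that touch none is thus tied to the rule and is given as a description. The rule does not fix it in each block. Between the blocks of 3L that begin at 9 and 16 Mb, pairs touching a member rose from 2 to 8. Between 6 to 7 and 8 to 9 Mb of 2L, 66 pairs between members were lost, 8 kept and 1 gained, and pairs touching a member went from 281 to 109. Pairs touching none went from 269 to 458 there, so that the block as a whole went from 550 to 567. Between 11 to 12 and 12 to 13 Mb of X, 23 were lost, 1 kept and none gained, with 180 companion and 179 heat-shock pairs over the whole block. On 3L, 18 pairs between members joined 19 to 20 Mb to 23 to 24 Mb and 11 joined 6 to 7 Mb to 9 to 10 Mb, and all of these were lost. The first of these blocks had 39 companion and 42 heat-shock pairs, and the second 73 and 43.

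Bins rich in heat-shock partners made up no larger part of the gained partners of members than of the heat-shock list. Bins with 50 or more heat-shock partners, 320 in all, held 25.4% (25.2 to 25.7%) of all heat-shock pair ends and 15.2% (15.0 to 15.5%) of all companion pair ends. They made up 6.52% (5.97 to 7.10%) of the partners that members lost, 25.9% (23.9 to 28.0%) of those kept and 23.2% (21.7 to 24.7%) of those gained. For other eligible bins the shares were 8.69% (8.34 to 9.05%), 30.8% (29.9 to 31.7%) and 26.4% (26.0 to 26.9%), and were thus ordered in the same way. Because these partner bins were defined by many heat-shock partners, a low share among lost partners is tied to that definition. The bin gained by most members was 2L 6640001-6650000, with 13 companion and 133 heat-shock partners, which 17 members gained. They lay 0.15 to 3.62 Mb from it and included 2L 8250001-8260000, 2L 8290001-8300000 and 2L 8310001-8320000 of the stretch described above. Members stood directly beside a bin with 50 or more heat-shock partners in 6.34% (4.37 to 8.83%) of cases, against 5.14% (4.45 to 5.90%) for other eligible bins, a difference within counting error.

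Bins chosen on partners of 1 distance range were also read on those of the other. In a reading added after the data were seen, bins were chosen on a loss of at least 5 partners over 1 Mb away and then read on their nearer partners, which the choice had not used. These 215 bins had 675 companion and 619 heat-shock partners up to 1 Mb away, a ratio of 0.92, against 0.97 in the remaining eligible bins. Without the 9 chosen bins at the centromere ends the ratio was 1.00. The like ratio was not computed for the remaining eligible bins, so 1.00 has no comparison. Fewer nearer partners were found in 67 of the 215 bins (31.2%, 25.0 to 37.8%) and more in 80 (37.2%, 30.7 to 44.0%). Of the remaining eligible bins 43.0% (41.4 to 44.5%) had fewer. The 215 bins had a median of 1 companion partner (1 to 2) up to 1 Mb away, which leaves little room for fewer. The remaining eligible bins could reach 5 companion partners on near ones, so the 2 sets are unlike and nothing is concluded from their difference. In the reverse reading, 438 bins chosen on partners up to 1 Mb away had 1632 companion and 2760 heat-shock partners farther away, a ratio of 1.69, against 1.49 in the remaining eligible bins. A larger number of distant partners in the heat-shock list was found in 306 (69.9%, 65.3 to 74.1%) and a smaller number in 76 (17.4%, 13.9 to 21.2%). Among the remaining eligible bins 24.9% (23.6 to 26.4%) had a smaller number, so more far partners in the heat-shock list was the general state of eligible bins.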

How the data were processed

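Hi-C pair lists were used as the authors deposited them. Each line gives an arm, 2 bins of 10 kb and a score; the deposited score has the form of a logarithm of a p-value, but the sources used here name neither its base nor its background model, nor the libraries behind the companion list. The submitters' processing notes list Bowtie 0.12.7, without its role. The heat-shock list is tied to its 2 Hi-C libraries by their descriptions. ChIP and input libraries (7) are not analysed here. Partners were counted as different bins per list, and lost, kept and gained partners by exact bin match. Intervals came from scipy 1.17.1. The functions were checked on lists with known losses. Members, comparison sets and named regions were chosen with earlier results of these data known. Regions named were the 10 largest losses, the 2 largest of each arm, the 5 absent bins with most companion partners, the 5 longest runs and the 5 strongest lost and kept pairs; windows, blocks and gained bins named beside them were picked for their values. Alternatives were lists of equal length, stricter lists, other limits, looser matching, other windows and no centromere ends. With 1 list of each kind no library could be left out.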

Additional observations from a re-analysis of the deposited data

How the results depend on the processing

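Of 46 alternatives, 15 gave values inside the reported interval (for the number of members, within 1.5 times), 30 moved and 1 crossed to the other side; causes were not tested unless the construction shows them. The number of members was 145 with a minimum loss of 10, 997 with a minimum of 3, 1681 in lists of equal length, 219 on partners over 1 Mb away and 65 in bins of 50 kb. At equal length 1686 bins had at least 5 fewer and 860 at least 5 more partners. The share of members with an adjacent member was 22.1% at a loss of 10, 46.7% with 1 bin between allowed, 47.2% at equal length and 22.3% without the centromere ends. The share at the centromere ends was 31.0% at a loss of 10, 12.5% at a loss of 3, 27.5% in 2 Mb windows and 11.1% at equal length. Members lost 52.7% of companion partners with a match within 1 bin, 36.9% within 2 bins, 83.3% in the strongest 50% of each list and 84.7% without the centromere ends. The median distance of lost partners was 1.92 Mb with a match within 1 bin and 1.84 Mb without the centromere ends; kept partners lay at 0.69 Mb with the stricter lists, and at 0.72 Mb when the centromere ends were left out. Lost partners that were members made up 17.6% at a loss of 10, 32.7% at a loss of 3, 31.8% in the stricter lists, 17.6% without the centromere ends, 17.6% over 1 Mb and 39.9% with bins next to members included. The median change of bins beside members was 0 at equal length and at a loss of 10. The ratio of heat-shock to companion partners, 0.53 in members, was 0.92 in bins chosen on far partners and read on near ones, and 1.69 in the reverse reading, both added after the data were seen. Of the 505 members, 239 (47.3%) were members in the stricter lists, where 454 (89.9%) still had fewer heat-shock partners. No paired analysis was possible because the groups hold 1 list each. Depth is unknown, so a pair that is not listed may still be in contact.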
